A study of Capra hircus with 4 samples.

Results

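Integrin, laminin and hemidesmosome genes were followed in stem cells of the secondary hair follicle, which grows the fine undercoat of cashmere goats (Capra hircus). Of 20326 genes in the deposited tables, 41 chosen by symbol are described: 17 integrin alpha chains, 8 integrin beta chains, 10 laminin chains, and 6 linker and basement membrane genes (DST, PLEC, NID1, NID2, HSPG2 and AGRN). The cells were isolated from the skin of the back and grown in culture, and RNA was sequenced at mid anagen, sampled in October, and at early anagen, sampled in April. Each phase has 2 libraries, 1 from a female and 1 from a male, which the labels call biological replicates; replicate number and sex are the same variable. Both phases share the culture step. The sources used here do not give the age of the goats, the time in culture or the number of animals per library, and p-values measure only the spread between these libraries.

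Integrins are receptors made of 1 alpha and 1 beta chain that hold cells to the extracellular matrix. In basal keratinocytes and in the follicle, the pair of ITGA6 and ITGB4 forms the core of the hemidesmosome: it binds laminin-332 in the basement membrane outside the cell and is tied to keratin filaments inside it by the plakins plectin (PLEC) and dystonin (DST). Laminins are trimers of an alpha, a beta and a gamma chain. Another group of integrins, built on ITGAV or ITGA5, recognises the RGD tripeptide in fibronectin, osteopontin and the latent form of TGF-beta.

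The values are deposited abundances per gene, normalised for length, so levels can be compared between genes; the read depth behind them is unknown. Their totals differed between the phases, at 933211 and 844960 in the female and male mid libraries and 1068429 and 1186966 in the female and male early libraries. Rescaling each library to a common total moves the median of the log2 fold changes of the whole table by 0.31, to 0.32 after rescaling, against 0.011 as deposited, so changes after rescaling are read against 0.32. Keratinocyte markers were present in all libraries, with KRT14 at 9603 and 8956 at mid anagen, against 20587 and 23511 at early anagen. All 8 markers of that list were tested and 0 were called in either direction by limma (unadjusted p under 0.05 for 1 higher and 1 lower). Of the 8 follicle stem cell markers, 7 were found by symbol and CD34 was under 1 in every library. All 7 had both mid values above both early values, an order that 31.5% of all tested genes had. CD34 was not tested and was at 0.136 and 0.0136 at mid anagen, against 0 and 0 at early anagen. The 6 tested were each higher at mid anagen at an unadjusted p under 0.05 and 0 lower, against 13.2% higher and 14.7% lower over all tested genes. LGR5, 1 of the 6, reached 1 in only 1 early library. LHX2, a transcription factor of follicle stem cells and the only marker called, rose (values 31.7 and 32.1 at mid anagen, against 9.54 and 6.94 at early anagen, limma adjusted p = 0.0431), a call lost when either early library is left out. All 10 fibroblast markers except THY1 had both mid values above both early values, where 31.5% of all tested genes did. Of the 7 tested, 6 reached the filter in the mid libraries alone. The 10 genes summed to 186 and 74.6 at mid anagen, against 40.4 and 25.6 at early anagen, and THY1 by itself was at 16.4 and 28.8 at mid anagen, against 39.4 and 23.0 at early anagen. These are bulk libraries, in which fewer cells of a type and less RNA per cell cannot be told apart.

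Of the 41 genes, 28 reached a value of 1 in at least 2 libraries and were tested, and each of these reached 1 in at least 1 library of both phases. ITGB3 reached 1 in only 1 early library, so it passed the filter only with its mid values. It is among the 10 and the 15 genes counted below as higher at mid anagen. The phases were compared by limma on log2(value + 1), mid over early, a scale that understates the change of low genes. Over all 12486 tested genes, 0.304% were called at an adjusted p under 0.05 (0.224% higher and 0.0801% lower), and 0 of the 28 were called in either direction. At an unadjusted p under 0.05, 10 of the 28 were higher at mid anagen and 0 were lower, against 13.2% higher and 14.7% lower over all tested genes. After rescaling to a common total, 6 were called higher (ITGB6, ITGA1, ITGA5, ITGB8, ITGAV and AGRN) and 0 lower, against 4.53% and 0.665% of all tested genes. These calls test a change against 0, not against the median of 0.32, so the shift of the whole table counts toward them. By order alone, 15 of the 28 had both mid values above both early values and 2 had both below, where 31.5% and 30.9% of all tested genes did. After rescaling the counts were 21 and 0, against 57.2% and 12.7%. ITGB6, ITGB3 and ITGA1 had the highest log2 fold changes of the 28, and ITGB4, ITGAX and ITGA6 the lowest.

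The hemidesmosome receptor chains were among the most abundant transcripts of these cells in both phases. ITGB4 (GeneID 102191175), whose long tail binds plectin, ranked 210 by mean level among all genes and was at 592 in the female and 605 in the male mid library, against 718 and 721 in the female and male early libraries. Both mid values lay below both early values, a difference that did not pass (log2 fold change -0.26, SE 0.20, limma adjusted p = 0.421). After rescaling its values overlapped between the phases and the log2 fold change was 0.077, below the 0.32 of all tested genes. ITGA6 (GeneID 102186530), the alpha partner of ITGB4 and also of ITGB1, ranked 324 and was at 366 in the female and 389.9 in the male mid library, against 380.2 and 472.5 in the female and male early libraries. The phases overlapped (log2 fold change -0.17, SE 0.21, limma adjusted p = 0.629), and the log2 fold change was 0.18 after rescaling, also below 0.32. The level of ITGB4 over that of ITGA6 within a library was 1.62 and 1.55 at mid anagen, against 1.89 and 1.53 at early anagen, and the phases overlapped.

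No difference passed for the plakins that carry keratin filaments to the receptor. DST (GeneID 106503471) was at 339.8 in the female and 234 in the male mid library, against 284 and 233 in the female and male early libraries, with each sex showing its higher value at mid anagen but the phases overlapping (log2 fold change 0.13, SE 0.25, limma adjusted p = 0.766). This gene also gives forms found in nerve and muscle, and values per gene cannot show which form was present. PLEC (GeneID 106504013) was at 115 in the female and 132 in the male mid library, against 114 and 109 in the female and male early libraries, with both mid values just above both early values (log2 fold change 0.14, SE 0.16, limma adjusted p = 0.591). Leaving out 1 library gave PLEC log2 fold changes of 0.047, without the mid male library, to 0.24, without the mid female library. Of 6 hemidesmosome partners outside the set, 0 were called by limma in either direction, and the median of their log2 fold changes was -0.093. At an unadjusted p under 0.05, 1 was higher and 1 lower, against 13.2% and 14.7% of all tested genes. COL17A1, the transmembrane collagen of the hemidesmosome, was at 1051 and 866 at mid anagen, against 1361 and 923 at early anagen, and overlapped. KRT14 and KRT5, the keratins anchored there, had both mid values below both early values under both scalings, with KRT5 at 7281 and 9234 at mid anagen, against 15892 and 18092 at early anagen (limma adjusted p = 0.155 for KRT14 and 0.193 for KRT5).

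**Figure D1:**
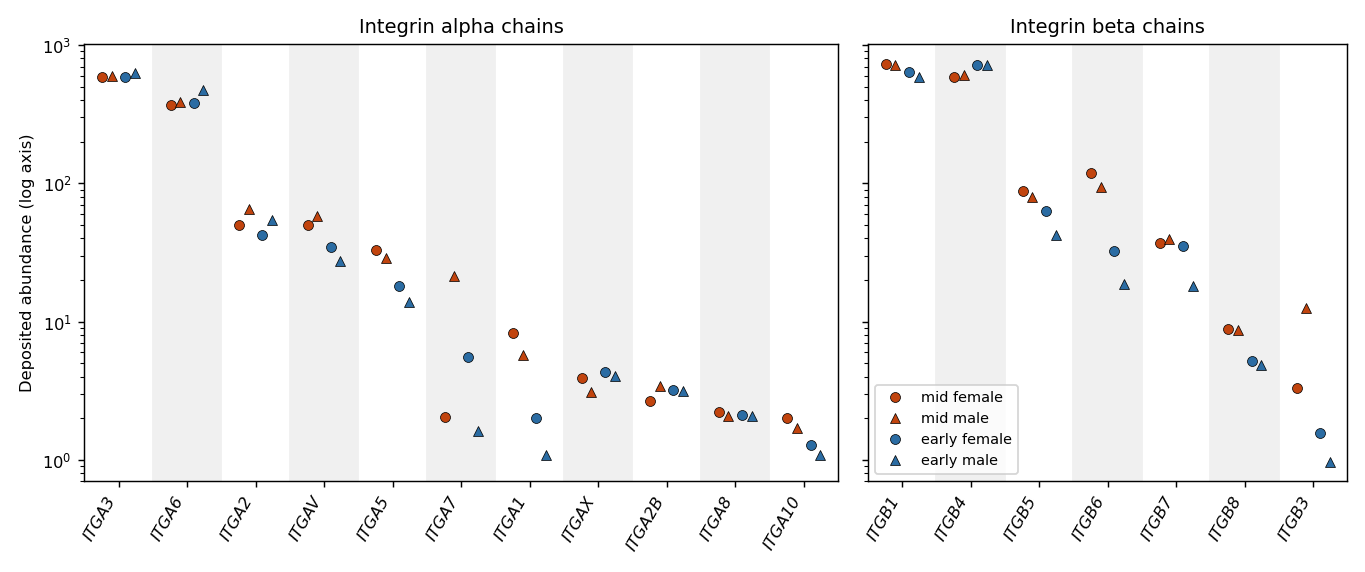
Deposited abundance of the 11 tested integrin alpha chains and the 7 tested integrin beta chains in each library, on a log axis; circles are female and triangles male libraries, mid anagen in orange and early anagen in blue. ITGA3, ITGA6, ITGB1 and ITGB4 lie together near the top in all libraries, while ITGB6, ITGB5, ITGB8, ITGB3, ITGAV, ITGA5 and ITGA1 have both mid points above both early points.

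LAMA3 and LAMB3, chains of laminin-332, the ligand that hemidesmosomes hold, were ordered by library rather than by phase. LAMA3 (GeneID 102190835) was at 246 in the female and 278 in the male mid library, against 193 and 372 in the female and male early libraries. LAMB3 (GeneID 102168376) was at 239 in the female and 332.1 in the male mid library, against 224 and 384 in the female and male early libraries. As deposited, for both chains the early male library was the highest of the 4 and the early female the lowest, with both mid libraries between them. After rescaling, the mid male library was the highest for both chains and the early female still the lowest, so the order depends on the scaling. The log2 fold changes of -0.033 for LAMA3 and -0.056 for LAMB3 were each smaller in size than their SE of 0.33 and 0.32 (limma adjusted p = 0.959 and 0.925), and after rescaling they were 0.31 and 0.29, just below the 0.32 of all tested genes. Without the early male library they were 0.44 and 0.33.

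The chains of laminin-511, the other main laminin of the epidermal basement membrane, were each lower in level than LAMA3 and LAMB3 in every library. LAMA5 (GeneID 102171801) was at 84.2 in the female and 116 in the male mid library, against 72.7 and 62.5 in the female and male early libraries. Both mid values lay above both early values, and the difference did not pass (log2 fold change 0.54, SE 0.21, limma adjusted p = 0.168); without the mid male library the log2 fold change was 0.32. LAMB1 (GeneID 102176661) was at 144 in the female and 145 in the male mid library, against 105 and 108 in the female and male early libraries. Libraries of a phase nearly coincided for LAMB1 and the phases did not overlap, at an adjusted p over the threshold (log2 fold change 0.43, SE 0.15, limma adjusted p = 0.143). LAMC1 (GeneID 102170256), a gamma chain shared by many laminins, was at 106 in the female and 126 in the male mid library, against 96.9 and 121 in the female and male early libraries, and overlapped (log2 fold change 0.088, SE 0.19, limma adjusted p = 0.795).

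The other laminin chains among the 41 genes were under 1 in every library. LAMA1 was listed at 0 in every library, and LAMA2 at 0.00432 and 0.00749 at mid anagen, against 0.00819 and 0 at early anagen. LAMA4, a chain of vascular and mesenchymal laminins, was at 0.801 and 0.371 at mid anagen, against 0.0132 and 0.0302 at early anagen. It stayed under the filter, and no fold is given for it since the early values are so low. LAMB4 and LAMC3 were under 1 in every library. LAMB2 has no symbol in the tables; LOC102183372, described there as laminin subunit beta-2 and outside the rule, was at 17.1 and 26.0 at mid anagen, against 17.3 and 16.2 at early anagen, with phases that overlapped (limma adjusted p = 0.387). LAMA4 was highest in the mid female library, as was the sum of the fibroblast markers, and their part in the LAMA4 values was not tested.

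**Figure D2:**
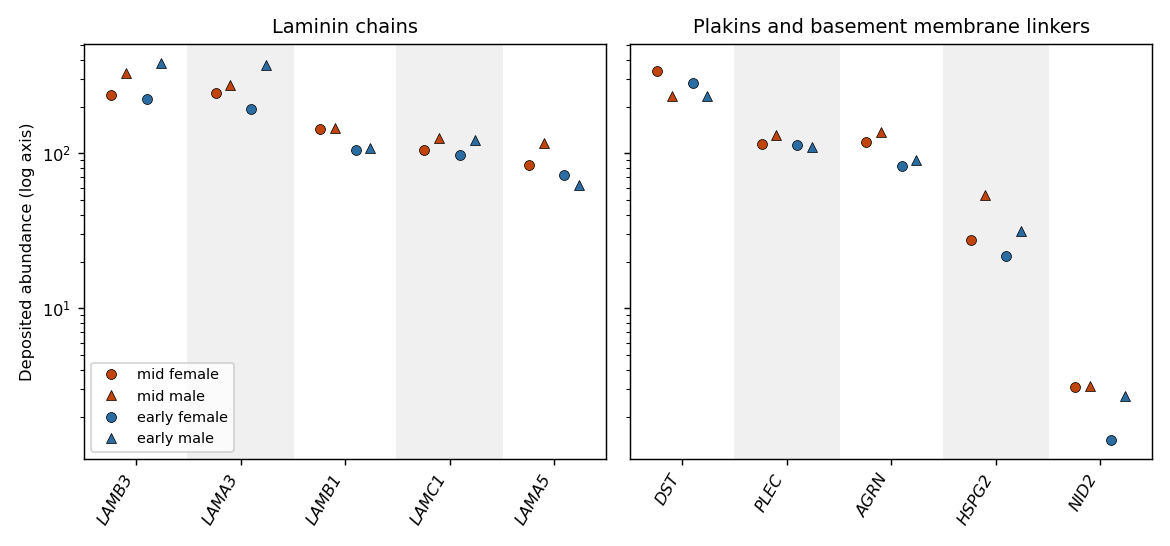
Deposited abundance of 5 tested laminin chains and the 5 tested plakin and basement membrane linker genes in each library, on a log axis; circles are female and triangles male libraries, mid anagen in orange and early anagen in blue. LAMB3 and LAMA3 have the early male library at the top and the early female library at the bottom, while LAMB1, LAMA5 and AGRN have both mid points above both early points.

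ITGB6, ITGB3, ITGB5 and ITGB8, which pair with ITGAV in RGD receptors, had both mid values above both early values, and ITGB6 and ITGB3 had the 2 highest log2 fold changes of the 28 tested genes. ITGB6 (GeneID 102188539), an epithelial partner of ITGAV known for activating latent TGF-beta and for its presence in wounded epidermis, was at 118 in the female and 93.9 in the male mid library, against 32.5 and 18.7 in the female and male early libraries. Both mid values stood well clear of both early values, and the mean at mid anagen was 4.14 times that at early anagen (log2 fold change 2.05, SE 0.29, limma adjusted p = 0.0636). Rescaled to a common total it was called in a test against 0 (log2 fold change 2.38, limma adjusted p = 0.0327). ITGB5 (GeneID 102173608), a vitronectin receptor chain, was at 87.7 in the female and 79.8 in the male mid library, against 63.1 and 42.0 in the female and male early libraries, with no overlap of the phases (log2 fold change 0.69, SE 0.23, limma adjusted p = 0.134). Without the early male library the ITGB5 log2 fold change was 0.40. ITGB8 (GeneID 102191301), another chain that binds latent TGF-beta, was at 8.90 in the female and 8.72 in the male mid library, against 5.14 and 4.87 in the female and male early libraries, where libraries of a phase lay close together (log2 fold change 0.71, SE 0.15, limma adjusted p = 0.0783). ITGB8 was also called after rescaling, again in a test against 0 and not against 0.32 (log2 fold change 1.00, limma adjusted p = 0.0472).

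ITGB3 (GeneID 102169417), known from platelets, vessels and bone-resorbing cells, was at 3.32 in the female and 12.5 in the male mid library, against 1.55 and 0.971 in the female and male early libraries. The mid male library stood far above the other 3, and the phases did not overlap (log2 fold change 1.77, SE 0.54, limma adjusted p = 0.118). ITGB3 reached 1 in only 1 early library, so it passed the filter only with its mid values. Without the mid male library its log2 fold change was 0.95. Of 7 endothelial markers 5 were under 1 in every library. Among these, CDH5 was listed at 0 throughout, PECAM1 was lower in both mid libraries, and VWF, KDR and TEK were higher in both. KDR and VWF were highest in the mid male library, as was ITGB3, and TEK in the mid female library. The 7 summed to 11.8 and 11.3 at mid anagen, against 4.27 and 4.55 at early anagen, most of it from EGFL7 and ERG. EGFL7 was at 7.10 and 5.16 at mid anagen, against 2.86 and 3.72 at early anagen. ERG was at 4.19 and 5.24 at mid anagen, against 0.884 and 0.333 at early anagen. Both were higher at mid anagen at an unadjusted p under 0.05, as were 13.2% of all tested genes, and 0 were called by limma. ERG reached the filter in the mid libraries alone. The part of these markers in the ITGB3 values was not tested.

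The RGD-binding alpha chains ITGAV and ITGA5 also had both mid values above both early values. ITGAV (GeneID 102187813), which pairs with ITGB3, ITGB5, ITGB6, ITGB8 and ITGB1, was at 49.8 in the female and 57.7 in the male mid library, against 34.9 and 27.3 in the female and male early libraries, with no overlap (log2 fold change 0.78, SE 0.18, limma adjusted p = 0.0851). ITGA5 (GeneID 102176587), the fibronectin receptor chain that pairs with ITGB1, was at 33.0 in the female and 28.8 in the male mid library, against 18.0 and 13.9 in the female and male early libraries, again with no overlap (log2 fold change 0.92, SE 0.18, limma adjusted p = 0.0755). After rescaling both were called in a test against 0 and not against 0.32, with a log2 fold change of 1.11 for ITGAV and 1.25 for ITGA5 (limma adjusted p = 0.0498 and 0.0455). ITGA8, the nephronectin receptor chain, was at 2.21 and 2.08 at mid anagen, against 2.10 and 2.07 at early anagen, level across all libraries. ITGA2B, the platelet chain, was near the same level at 2.65 and 3.42 at mid anagen, against 3.20 and 3.13 at early anagen, and is named here because its pairs of libraries moved in opposite directions.

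Among the ITGAV partners the balance of the beta chains differed between the phases. The level of ITGB6 over that of ITGB5 was 1.35 and 1.18 at mid anagen, against 0.515 and 0.445 at early anagen, so ITGB6 exceeded ITGB5 in both mid libraries and stood below it in both early libraries. Set against its alpha chain, ITGB6 over ITGAV was 2.37 and 1.63 at mid anagen, against 0.931 and 0.686 at early anagen. These ratios are within a library and do not depend on how libraries were scaled to each other. With 2 libraries against 2 an exact two-sided permutation test cannot go below p = 0.333, so they are given with no test.

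ITGB1 (GeneID 102178060), the common partner of most alpha chains, was the highest integrin chain by mean level, ranking 208 among all genes, at 732 in the female and 718 in the male mid library, against 644 and 591 in the female and male early libraries. Both mid values were above both early values, a difference that did not pass (log2 fold change 0.23, SE 0.20, limma adjusted p = 0.490). Its main partner in keratinocytes, ITGA3 (GeneID 102185499), a laminin-332 and laminin-511 receptor chain, was at 587 in the female and 598 in the male mid library, against 589.8 and 630.2 in the female and male early libraries, an overlap of phases (log2 fold change -0.040, SE 0.20, limma adjusted p = 0.912). ITGA7 (GeneID 102169839), a laminin receptor chain of muscle named here after its values were seen, was at 2.05 in the female and 21.5 in the male mid library, against 5.55 and 1.61 in the female and male early libraries. It was lower at mid anagen in females and higher in males, and its SE of 0.97 is nearly as large as its log2 fold change of 1.00 (limma adjusted p = 0.532). Without the mid male library it was -0.44, and without the mid female library 2.44. The smooth muscle and pericyte markers, another population in which ITGA7 is found, summed to 74.8 and 107 at mid anagen, against 77.8 and 66.7 at early anagen over 6 genes, of which RGS5 and DES were under 1 in every library, and their part in the ITGA7 values was not tested.

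Collagen receptor chains all pair with ITGB1. ITGA2 (GeneID 102172198), the keratinocyte collagen receptor chain, was at 50.1 in the female and 65.3 in the male mid library, against 42.4 and 54.2 in the female and male early libraries, with each mid library above the early library of its sex and the phases overlapping (log2 fold change 0.25, SE 0.21, limma adjusted p = 0.463). Leaving out 1 library gave ITGA2 log2 fold changes of 0.061, without the mid male library, to 0.44, without the mid female library. ITGA1 (GeneID 102172761), found mostly on mesenchymal and muscle cells, was at 8.24 in the female and 5.74 in the male mid library, against 2.00 and 1.09 in the female and male early libraries, with no overlap (log2 fold change 1.66, SE 0.27, limma adjusted p = 0.0711). The ITGA1 mean at mid anagen was 4.52 times that at early anagen, and the gene was called after rescaling in a test against 0 (log2 fold change 1.90, limma adjusted p = 0.0378). ITGA10, a cartilage collagen receptor chain, was at 2.00 and 1.71 at mid anagen, against 1.28 and 1.08 at early anagen (limma adjusted p = 0.268), and ITGA11, a fibroblast chain, was under 1 in every library, at 0.342 and 0.267 at mid anagen, against 0.269 and 0.274 at early anagen. ITGA1 was higher in the same phase as the fibroblast markers and highest in the mid female library, as their sum was; ITGB3 was highest in the mid male library. The part of those markers in the values of ITGA1 and ITGB3 was not tested.

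Leukocyte integrins were mostly at very low values. ITGA4, ITGAE, ITGAL, ITGAM and ITGB2 were under 1 in every library, as was ITGA9, listed at 0 in both early libraries. LOC102180368, described as integrin alpha-D and outside the rule, was also under 1 in every library. ITGAX, a myeloid chain, was at 3.88 and 3.07 at mid anagen, against 4.32 and 4.02 at early anagen (log2 fold change -0.21, SE 0.18, limma adjusted p = 0.475), and its log2 fold change after rescaling was 0.055, below the 0.32 of all tested genes. ITGB7, a partner of ITGA4 and ITGAE, was at 37.0 in the female and 39.7 in the male mid library, against 35.3 and 18.1 in the female and male early libraries, where the early male library stood apart below the other 3 (log2 fold change 0.58, SE 0.31, limma adjusted p = 0.282). The ITGB7 log2 fold change was 0.12 without the early male library and 1.04 without the early female library. The leukocyte markers PTPRC and TYROBP were listed at 0 in all libraries, and the 8 immune markers summed to 19.3 and 12.5 at mid anagen, against 8.57 and 6.81 at early anagen. Most of the mid sum came from CD14, at 12.6 and 8.52 at mid anagen, against 3.28 and 2.49 at early anagen. CD68, AIF1, CSF1R and CD3E overlapped between the phases, and LAPTM5 had both mid values above both early values.

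Each integrin chain can also be given as a share of the summed level of its class within a library, which does not depend on the scaling between libraries. Among the beta chains ITGB4 held 37.5% and 38.8% at mid anagen, against 47.9% and 51.6% at early anagen, and ITGB1 held 46.3% and 46.1% at mid anagen, against 43.0% and 42.3% at early anagen. ITGB6 held 7.48% and 6.03% at mid anagen, against 2.17% and 1.34% at early anagen, and ITGB3, ITGB5, ITGB6 and ITGB8 together held 13.8% and 12.5% at mid anagen, against 6.82% and 4.77% at early anagen. In each of these the phases did not overlap, with ITGB4 the lower at mid anagen and the others the higher.

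Laminin receptor chains made up most of the alpha chain level in every library. ITGA3, ITGA6 and ITGA7 together held 86.1% and 85.6% at mid anagen, against 89.9% and 91.1% at early anagen, and the chains ITGA5, ITGAV, ITGA8 and ITGA2B together held 7.91% and 7.80% at mid anagen, against 5.36% and 3.83% at early anagen. Neither share overlapped between the phases, with the laminin receptors lower and the RGD receptors higher at mid anagen. By chain, ITGA6 was the laminin receptor without overlap, at 33.0% and 33.1% at mid anagen, against 35.0% and 39.0% at early anagen. The shares of ITGA3 and ITGA7 overlapped. Among the RGD receptors the shares of ITGAV and ITGA5 were higher without overlap, and those of ITGA8 and ITGA2B overlapped. Unlike the shares, class sums depend on the scaling between libraries. As deposited, the alpha chains summed to 1109 and 1179 at mid anagen, against 1086 and 1212 at early anagen. The beta chains summed to 1579 and 1557 at mid anagen, against 1499 and 1396 at early anagen. As a percent of the library total, the alpha sum was 0.119% and 0.140% at mid anagen, against 0.102% and 0.102% at early anagen. The beta sum was 0.169% and 0.184% at mid anagen, against 0.140% and 0.118% at early anagen. Like rescaled values, these percents carry the shift of the whole table.

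Among the laminins, the level of LAMA5 over that of LAMA3 within a library was 0.343 and 0.416 at mid anagen, against 0.377 and 0.168 at early anagen, and that of LAMB1 over LAMB3 was 0.603 and 0.436 at mid anagen, against 0.472 and 0.281 at early anagen. Both ratios overlapped between the phases, with the early male library alone at the low end. The level of LAMC1 over that of LAMB1 was 0.732 and 0.868 at mid anagen, against 0.919 and 1.12 at early anagen, lower in both mid libraries than in both early libraries.

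**Figure D3:**
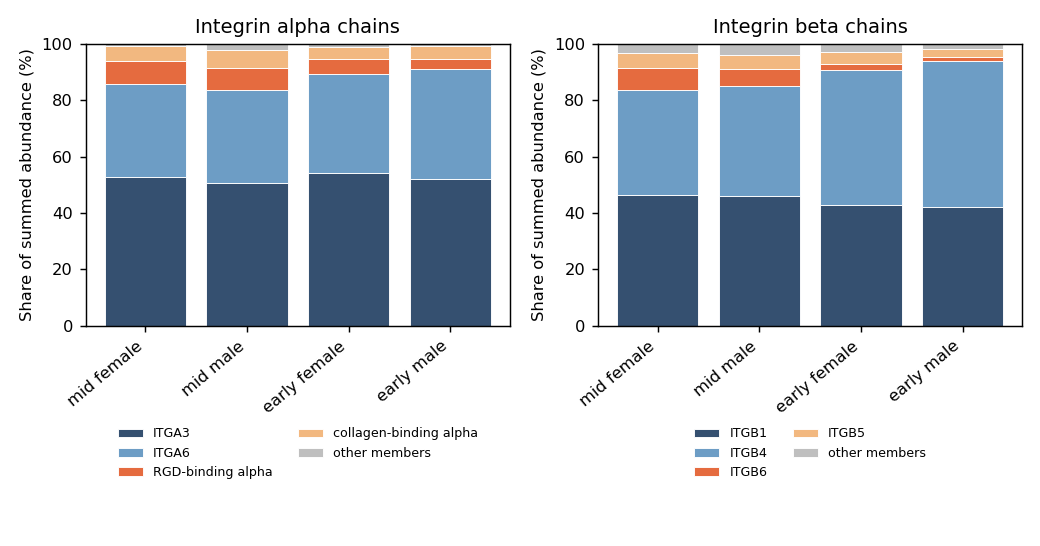
Share of each integrin chain or group of chains in the summed abundance of its class, in percent, as stacked bars with 1 bar per library, mid anagen on the left and early anagen on the right of each panel. The ITGB4 segment is smaller and the ITGB6 segment larger in both mid libraries, and the segment of the RGD-binding alpha chains is larger there too.

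Among the basement membrane linkers AGRN, NID2 and NID1 had both mid values above both early values, and HSPG2 overlapped as deposited. AGRN (GeneID 102169403), a heparan sulfate proteoglycan that binds laminin, was at 119 in the female and 138 in the male mid library, against 82.6 and 90.2 in the female and male early libraries, with no overlap (log2 fold change 0.56, SE 0.16, limma adjusted p = 0.112). It was called after rescaling, in a test against 0 and not against the 0.32 of all tested genes (log2 fold change 0.90, limma adjusted p = 0.0497). HSPG2 (GeneID 102188640), perlecan, was at 27.5 in the female and 54.2 in the male mid library, against 21.8 and 31.5 in the female and male early libraries; within each sex the mid library was the higher (log2 fold change 0.55, SE 0.35, limma adjusted p = 0.356). Without the mid male library the HSPG2 log2 fold change was 0.069, and without the mid female library 1.02. NID2, a nidogen that bridges laminin and type IV collagen, was at 3.08 and 3.16 at mid anagen, against 1.41 and 2.71 at early anagen (log2 fold change 0.46, SE 0.26, limma adjusted p = 0.295); its log2 fold change was 0.15 without the early female library and 0.78 without the early male library. NID1, the other nidogen, reached 1 in the mid female library only and was not tested, at 1.66 and 0.616 at mid anagen, against 0 and 0.0255 at early anagen. Nidogens are made largely by mesenchymal cells in skin, and the fibroblast sum was likewise highest in the mid female library; its part in the NID1 values was not tested.

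Among 18 other basement membrane genes found of 19 listed, 13 were tested and 0 were called by limma in either direction, and 1 of the 13 reached the filter in the mid libraries alone, which fixes its direction. Of the other 12, 6 were higher and 0 lower at an unadjusted p under 0.05, against 13.2% higher and 14.7% lower over all tested genes, with a median log2 fold change of 0.71, against 0.011 over all tested genes. The highest by mean level was TINAGL1, a matrix glycoprotein, at 171 and 194 at mid anagen, against 178 and 261 at early anagen. SPARC, a collagen-binding glycoprotein, was at 203 and 164 at mid anagen, against 78.2 and 24.5 at early anagen. COL18A1, a basement membrane collagen, was at 165 and 135 at mid anagen, against 72.6 and 54.6 at early anagen. SPARC and COL18A1 did not overlap between the phases, and TINAGL1 did. The type IV collagen chains COL4A1 and COL4A2, named after their values were seen, form the network that nidogens tie to laminin. COL4A1 was at 28.8 and 52.2 at mid anagen, against 17.4 and 22.4 at early anagen, with no overlap (limma adjusted p = 0.130). COL4A2 was at 40.9 and 67.5 at mid anagen, against 28.1 and 27.1 at early anagen, again with no overlap (limma adjusted p = 0.105).

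Of 24 symbols listed for integrin ligands outside the laminins, 21 were found and 18 tested. The list holds CYR61 and CTGF also under the symbols CCN1 and CCN2, which were not found. Of those tested, 5 (COL1A1, COL1A2, COL3A1, FBN1 and POSTN) reached the filter in the mid libraries alone, which fixes their direction. Of the other 13, 2 rose and 0 fell, against 0.224% higher and 0.0801% lower over all tested genes, and 7 were higher and 0 lower at an unadjusted p under 0.05, against 13.2% and 14.7%. Their median log2 fold change was 1.18, the value of NPNT. Of these 13, FN1, EDIL3, TGFB2 and NPNT reached 1 in only 1 early library, so they passed the filter only with their mid values. FN1 is among the 2 that rose, and FN1, EDIL3 and TGFB2 are among the 7. COL1A1, COL1A2 and COL3A1 are also on the fibroblast marker list, whose 10 genes summed to 186 and 74.6 at mid anagen, against 40.4 and 25.6 at early anagen, and the part of those markers in the ligand and basement membrane lists was not tested. FN1, fibronectin, the ligand of ITGA5, was at 92.0 and 61.7 at mid anagen, against 0.247 and 1.10 at early anagen (log2 fold change 5.56, SE 0.32, limma adjusted p = 0.0245), and reached 1 in only 1 early library. TNC, the matrix glycoprotein tenascin, was at 35.2 and 32.8 at mid anagen, against 9.66 and 9.28 at early anagen (log2 fold change 1.74, SE 0.14, limma adjusted p = 0.0323). Both calls are lost when either early library is left out. FBN1, the microfibril protein fibrillin and one of those 5, was at 8.48 and 5.86 at mid anagen, against 0.125 and 0.133 at early anagen.

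The most abundant ligand by far was SPP1, osteopontin, an RGD protein bound by ITGAV receptors. It was at 6178 in the female and 15388.5 in the male mid library, against 6195 and 1287 in the female and male early libraries. The mid male library was the highest and the early male the lowest, the female libraries of the 2 phases were nearly level, and the phases overlapped (log2 fold change 1.79, SE 0.86, limma adjusted p = 0.238). THBS1, thrombospondin, was at 178 and 638 at mid anagen, against 151 and 222 at early anagen, and CYR61, a matrix-bound integrin ligand, at 187 and 328 at mid anagen, against 199.7 and 333 at early anagen, both with overlap. TGFB1, whose latent form ITGB6 and ITGB8 receptors bind, was named after its values were seen and was at 109.8 and 104 at mid anagen, against 84.0 and 68.8 at early anagen (limma adjusted p = 0.144).

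Adaptors that couple integrin tails to actin showed no call. All 32 listed were found and 30 were tested, with 0 called by limma in either direction. Without 1 that reached the filter in the mid libraries alone, 29 were left, with a median log2 fold change of 0.14. Of these, 5 were higher and 1 lower at an unadjusted p under 0.05, against 13.2% higher and 14.7% lower over all tested genes. ACTN4, an actin cross-linking actinin, was at 484 and 805 at mid anagen, against 557 and 764 at early anagen, and overlapped. Its relative ACTN1 also overlapped, at 475 and 601 at mid anagen, against 549 and 662 at early anagen. ZYX, zyxin, a protein of mature focal adhesions under tension, was at 781 and 793 at mid anagen, against 449 and 397 at early anagen, with no overlap (log2 fold change 0.90, SE 0.20, limma adjusted p = 0.0834). Of 7 other laminin receptors, 6 were tested and 0 were called in either direction by limma. At an unadjusted p under 0.05, 1 was higher and 0 lower, against 13.2% and 14.7% of all tested genes. The 1 higher was SDC2, which reached 1 in only 1 early library. RPSA, a ribosomal protein also described as a laminin receptor, was at 2045 and 2051 at mid anagen, against 2444 and 2885 at early anagen. SDC1, a syndecan, was at 358 and 384 at mid anagen, against 325 and 335 at early anagen. BCAM, a LAMA5 receptor, was at 265 and 223 at mid anagen, against 303 and 299.5 at early anagen. Mid values were lower than early values for RPSA and BCAM and higher for SDC1, and after rescaling RPSA and BCAM overlapped.

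**Figure D4:**
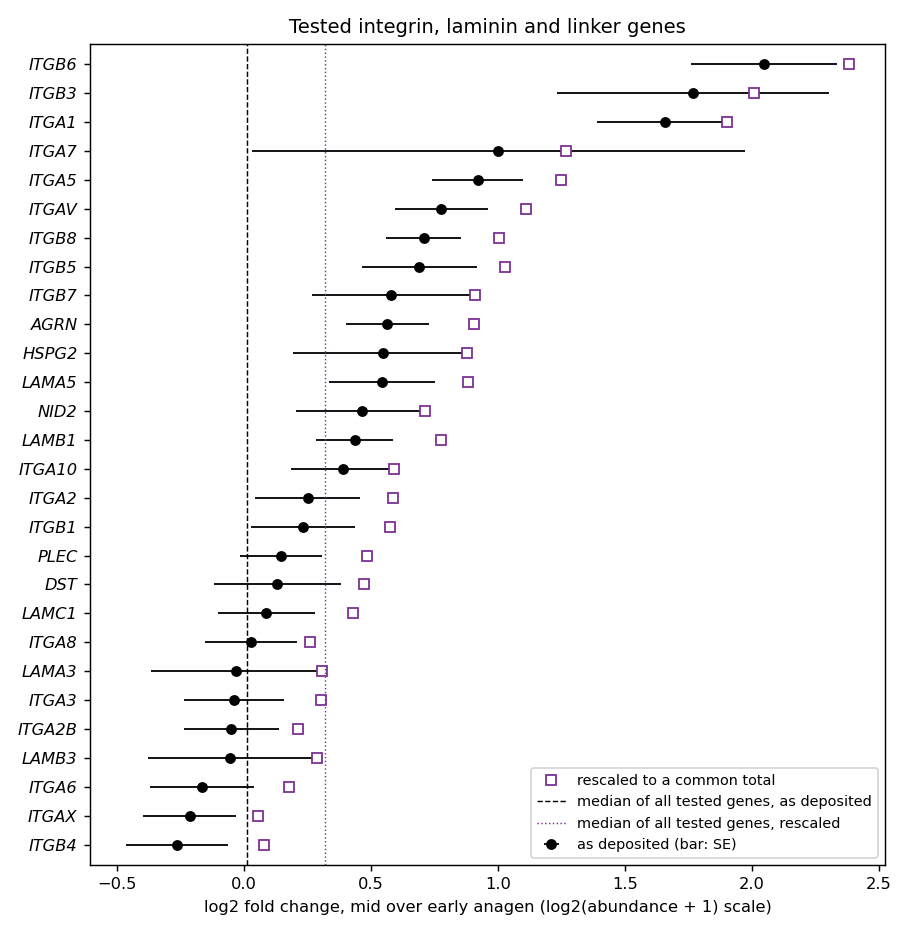
Log2 fold change of mid over early anagen for the 28 tested genes, sorted; filled points with SE bars are as deposited and open squares are after rescaling to a common total, and the vertical lines are the medians of all 12486 tested genes (0.011 and 0.32). ITGB6, ITGB3 and ITGA1 lie furthest to the right, and ITGB4, ITGAX and ITGA6 lie below 0 as deposited and to the left of the rescaled median after rescaling.

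By class, the log2 fold changes had a median of 0.25 over 11 tested alpha chains, 0.69 over 7 beta chains, 0.088 over 5 laminin chains and 0.46 over 5 linker and basement membrane genes, beside 0.011 over all tested genes. Rescaled, these were 0.59, 1.00, 0.43 and 0.71, beside 0.32. As deposited, 21 of the 28 were above 0 and 7 below; rescaled, all 28 were above 0 and 20 were above the median of all tested genes. The 13 genes that were not tested comprise 6 alpha chains, 1 beta chain, 5 laminin chains and NID1, and 12 of the 13 were under 1 in every library.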

How the data were processed

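RNA of 4 libraries was sequenced, 2 per phase. The deposited values are a signal made by the authors, a length-normalised abundance per gene; the submitters' processing notes list kallisto 0.46.1 and sleuth 0.30.0, and the sources used here give no build or annotation. Depth is unknown, so no counting interval is given.

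Values were joined by gene identifier and analysed as log2(value + 1) with limma 3.58.1 in R 4.3.3, with an intensity trend, phase as the only term and Benjamini-Hochberg adjustment over the 12486 genes that reached 1 in 2 or more libraries, at a threshold of 0.05. The fit was tested on simulated data. Shares and ratios were taken within a library.

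The members and lists were chosen with earlier results of these data known. Named by rule were the hemidesmosome, laminin, RGD receptor and linker chains, any member called or without overlap between phases, and of each list the genes called and the 3 with the highest mean; others are said to be chosen after their values were seen. A gene that the rule also takes is not reported here. Genomic spans for 1 alternative came from the RefSeq table of ARS1.2. Alternatives were other pseudocounts and filters, leaving out each library, a replicate block, rescaling to a common total and removal of the span trend.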

Additional observations from a re-analysis of the deposited data

Results flagged for a closer look

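With 1 library per sex in each phase, the fold change of mid over early anagen can be taken within the female pair and within the male pair. As deposited, the pairs moved in opposite directions in 4 of the 28 tested genes, and the difference between the sexes was not tested. ITGA7 had a log2 fold change of -1.10 for females and 3.11 for males. LAMA3 and LAMB3 were higher at mid anagen in the female pair and lower in the male pair, with 0.35 and -0.42 for LAMA3, and 0.096 and -0.21 for LAMB3. For both the early male library was the highest of the 4 as deposited. After rescaling the mid male library was the highest for both, so their male pair was then also higher at mid anagen. ITGA2B had -0.20 for females and 0.10 for males, at levels near 3 in every library.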

How the results depend on the processing

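The counts of called genes depend on the setting, and the cause was not tested. Over all genes, limma called 28 higher and 10 lower; a pseudocount of 0.1 gave 13 and 5, no filter gave 0 and 0 (1939 and 1904 at an unadjusted p under 0.05), a filter of 5 gave 19 lower, and rescaling to a common total gave 565 and 83. Replicate number equals sex, and nothing in the labels ties same-numbered libraries to 1 animal or day; their deviations from the phase means correlated at 0.292 across 12486 genes. A replicate block gave 917 higher (7.34%) and 865 lower (6.93%), and called 6 of the 28 members higher (ITGB6, ITGA1, ITGA5, ITGB8, ITGAV and ITGB3) and 0 lower; 5 of these were among the 6 called after rescaling. Leaving aside genes that reached the filter in the mid libraries alone, the block called higher 6 of 12 other basement membrane genes, 6 of 13 ligands, 1 of 29 adaptors, 1 of 6 hemidesmosome partners and 1 of 6 other laminin receptors, and 0 lower in any of them. Among the 6 ligands, FN1, EDIL3, TGFB2 and NPNT reached 1 in only 1 early library. So did SDC2, the laminin receptor called, and ITGB3 among the members called. Leaving out 1 library gave 0 to 331 genes higher and 0 to 402 lower, with 0 in either direction without an early library (1408 higher and 1489 lower at an unadjusted p under 0.05 without the female, 714 and 731 without the male), and 0 to 4 members higher. The 4 members without the mid female library were ITGB3, ITGA7, ITGA1 and ITGB6, and the 2 without the mid male library were ITGA1 and ITGB6. In such a fit the phase left with 1 library is assumed to vary like the other.

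Class medians moved as follows. For alpha chains the median log2 fold change was 0.030 with no filter, 0.78 with a filter of 5, 0.59 rescaled and 0.077 with the span trend removed, and 0.058 to 0.32 leaving out 1 library. For beta chains it was 1.00 rescaled and 0.40 to 0.98 leaving out 1 library, and for laminins 0.43 rescaled, -0.10 with the span trend removed and -0.071 to 0.44 leaving out 1 library. For linker and basement membrane genes it was 0.56 and 0.21 with pseudocounts of 0.1 and 5, 0.50 with no filter, 0.34 with a filter of 5, 0.71 rescaled, 0.32 with the span trend removed and 0.27 to 0.63 leaving out 1 library. Leaving out 1 library, the share differences between phases ran from -13.4 to -9.69 percentage points for ITGB4 and 4.28 to 5.73 for ITGB6. They ran from -5.22 to -4.00 for the laminin-binding alpha chains and 2.50 to 4.03 for the RGD-binding alpha chains. None of these shares overlapped between the phases, so leaving out 1 library could not change a sign.

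Rescaling lifts the median of all tested genes to 0.32, and 7 log2 fold changes crossed 0 with it while staying below that median: 0.21 for ITGA2B, 0.30 for ITGA3, 0.18 for ITGA6, 0.055 for ITGAX, 0.077 for ITGB4, 0.31 for LAMA3 and 0.29 for LAMB3. With the span trend removed the log2 fold change was 0.013 for ITGA2B, -0.23 for ITGA8, -0.10 for LAMC1 and -0.26 for DST. Leaving out 1 library, log2 fold changes ran from -0.19 to 0.087 for ITGA2B, -0.0027 to 0.058 for ITGA8, -0.088 to 0.0073 for ITGA3, -0.44 to 2.44 for ITGA7, -0.51 to 0.44 for LAMA3, -0.44 to 0.33 for LAMB3, -0.071 to 0.25 for LAMC1 and -0.14 to 0.40 for DST. ITGB6, ITGB5, ITGB8, ITGB3, ITGAV, ITGA5, ITGA1, LAMB1, LAMA5 and AGRN stayed above 0 in every setting in which they were fitted. So did ITGB1, ITGB7, ITGA2, ITGA10, PLEC, HSPG2 and NID2. Where the phases did not overlap, leaving out 1 library could not change the sign. ITGB3, ITGA10 and NID2 were not fitted with the filter of 5. The unknown read depth limits what can be said of genes at low values.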
